A study of Mus musculus with 6 samples.

Results

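The genes described here are the CD4 and CD8 coreceptors and the transcription factors that govern the choice between the CD4 and CD8 T cell lineages: Cd4, Cd8a, Cd8b1, Zbtb7b, Runx3 and Runx1. They were taken by symbol, as a fixed list of 6 of the 23282 genes listed for each library, and were chosen with their levels and their difference between genotypes already known. The comparison asks how the CD4 and CD8 chain transcripts stood to each other within each library labelled as CD4 T cells, and how each gene stood in AMPK KO cells beside WT cells. All 6 genes passed the filter on low values (a mean log2 value of at least 1), together with 11279 genes in all.

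The series holds 6 libraries of CD4 T cells from the spleen and lymph nodes of C57BL/6 mice, 3 WT and 3 AMPK KO. WT mice were Prkaa1 fl/fl CD4Cre-neg, and AMPK KO mice were Prkaa1 fl/fl with the CD4Cre transgene. Both groups thus carried the floxed gene for the catalytic AMPK subunit alpha 1, and the AMPK KO group alone carried Cre. The study's methods give female mice of 6 to 8 weeks, and its reporting summary gives magnetic beads (MACS) as the means of isolating T cells for in vitro work, with a high purity by flow cytometry directly afterwards. All cells were rested for 1 h and cultured with anti-CD3 and anti-CD28 antibodies at 2 µg/mL, for 24 h by the labels and 6 h by the methods. The CD4Cre transgene uses Cd4 regulatory elements, which are already active in CD4+CD8+ thymocytes, so that CD8 T cells of such mice also lose the floxed gene. The paper calls the 3 samples of a group independent biological samples, and whether each came from a separate mouse is not given in the sources used here. All p values measure the spread between these samples.

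CD4 and CD8 are the coreceptors of the T cell receptor. CD4 is a single chain that binds MHC class II, and CD8 on conventional CD8 T cells is a pair of an alpha and a beta chain that binds MHC class I. Mature T cells of the lymph nodes and spleen normally carry one coreceptor and silence the other: Zbtb7b (ThPOK) holds CD4 T cells to their lineage and represses CD8 genes, while Runx3 silences Cd4 and activates the CD8 program, and Runx1 represses Cd4 at an earlier thymic stage. Some dendritic cells carry the CD8 alpha chain without the beta chain.

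In the mm10 genome (GENCODE M21 annotation), Cd8b1 (chr6:71322788-71337494, plus strand) and Cd8a (chr6:71373427-71379173, plus strand) are neighbours, with 35933 bases between the end of the former and the start of the latter. Cd4 lies on the same chromosome at chr6:124864692-124888221 on the minus strand. Zbtb7b lies at chr3:89377644-89394776 (minus strand), Runx3 at chr4:135120652-135177990 (plus strand) and Runx1 at chr16:92601466-92826149 (minus strand). Each of these 3 regulator genes overlaps an annotated antisense gene, and because strand use in the counting is not given in the sources used here, reads of the pair may not be separated. The antisense gene over Zbtb7b, Gm15417, was listed with 6, 27 and 10 reads in the WT libraries and 8, 33 and 8 in the AMPK KO libraries, and its share of the Zbtb7b count was not tested.

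Runx proteins bind the letters TGTGGT, and promoter sequence was searched for them because Runx3 and Runx1 are known to bind Cd4, Cd8a and Zbtb7b regulatory DNA and their own promoters. The windows run from 250 bases before to 50 bases after a RefSeq start site (GRCm38.p6), and both strands were searched, so that ACCACA counts as a match. RefSeq windows were found for Cd8a (1 window), Zbtb7b (2), Runx3 (2) and Runx1 (2). There was 1 match in a Zbtb7b window and a tandem pair in 1 window each of Runx3 and Runx1, inside the longest stretch that the windows of these 2 genes share, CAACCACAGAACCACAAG (18 bases). The other windows of these genes, that of Cd8a included, held 0 matches, which says only that these letters are not in those windows. The stretches around the matches are shown 5′ to 3′ on the strand of the gene, with the single match (Zbtb7b) or the shared stretch (Runx3 and Runx1) in capitals. They lie at chr3:89387743-89387772 (minus strand) for Zbtb7b, chr4:135120503-135120532 (plus strand) for Runx3 and chr16:92826025-92826054 (minus strand) for Runx1.
Zbtb7b: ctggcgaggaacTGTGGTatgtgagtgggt
Runx3: gtccctCAACCACAGAACCACAAGgccagg
Runx1: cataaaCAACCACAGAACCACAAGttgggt

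The Zbtb7b match begins 89 bases before the start site, the Runx3 pair begins 134 and 126 bases before it, and the Runx1 pair lies after the start site, at bases 29 and 37 of the transcript. The single motif is common: it occurred in 5506 of 32851 windows of this length (16.8%). The shared stretch occurred in 4 windows, those of Runx1, Runx2 and Runx3 and that of Gm16225, which overlaps the Runx3 window on the opposite strand. The upstream region of Runx3 that holds the pair is shown whole, as 250 bases at chr4:135120395-135120644 on the plus strand.
Runx3 upstream: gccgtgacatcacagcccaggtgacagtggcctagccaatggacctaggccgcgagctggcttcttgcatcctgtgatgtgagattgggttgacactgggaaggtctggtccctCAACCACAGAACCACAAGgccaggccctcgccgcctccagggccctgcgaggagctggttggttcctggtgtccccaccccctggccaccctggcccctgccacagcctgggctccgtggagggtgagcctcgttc

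The libraries were QuantSeq 3′ libraries, in which a transcript is read near its 3′ end. Reads on listed genes numbered 9575096 to 10168121 in WT and 10515155 to 11185360 in AMPK KO libraries, and the ribosomal RNA precursor Rn45s took 20.7 to 24.9% of them in WT against 8.48 to 10.8% in AMPK KO. The targeted gene Prkaa1 was read 221, 369 and 248 times in WT and 188, 273 and 291 times in AMPK KO libraries, a log2 difference of -0.43 (adjusted p = 0.357, limma), and whether these 3′ reads come from outside the deleted exons was not tested. Xist, which is transcribed from an inactive X chromosome, was read 8 to 32 times in WT libraries and 1998 to 2876 times in AMPK KO libraries, and the Y-linked Ddx3y 3158 to 3462 and 1296 to 1840 times. These values go against a set of female mice in both groups, and the make-up of the groups by sex and the genotype cannot be told apart in any comparison below.

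Both CD8 chain transcripts were read at levels near or above that of Cd4 in libraries of cells labelled as CD4 T cells. Cd8b1 exceeded Cd4 in reads in 6 of 6 libraries, and Cd8a exceeded Cd4 in 4 of 6, which were 1 WT and all 3 AMPK KO libraries. Of the reads on Cd4, Cd8a and Cd8b1 together, the CD8 chains made up 68.8, 72.5 and 76.9% in the WT libraries and 77.7, 82.8 and 84.4% in the AMPK KO libraries. Since mature CD4 T cells are known to silence both CD8 chains, these transcript reads go against the label of CD4 T cells alone in both groups. They stand beside the high purity that the study gives from flow cytometry directly after isolation, a different measure, and the share of cells of each type cannot be read from these transcript levels. The libraries are called by their labels here without a further cell type name. In bulk libraries, fewer cells of a type and less RNA per cell cannot be told apart.

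Cd4 was read 964, 1127 and 809 times in WT samples 1, 2 and 3, and 1096, 839 and 829 times in AMPK KO samples 1, 2 and 3. On the deposited scale, log2 of TMM-normalized CPM (reads scaled to library size) plus 1, these were 6.72, 6.83 and 6.53 in WT and 6.55, 6.31 and 6.14 in AMPK KO. AMPK KO samples 2 and 3 were below every WT sample, while AMPK KO sample 1 stood just above WT sample 3, so that the groups overlapped. The means were 6.69 ± 0.15 (SD, n = 3) and 6.33 ± 0.20, a difference of -0.36 (SE 0.17, 95% interval -0.72 to -0.01) or 0.778 times the WT level. The limma fit across 11279 genes gave an adjusted p of 0.224.

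Cd8a, the alpha chain shared by CD8 T cells and some dendritic cells, was read 813, 1034 and 1021 times in WT and 1545, 1320 and 1598 times in AMPK KO libraries. The log2 values were 6.48, 6.71 and 6.86 in WT and 7.04, 6.95 and 7.08 in AMPK KO. All 3 AMPK KO libraries were above all 3 WT libraries, although the gap between the nearest samples was small beside the WT spread. The means were 6.68 ± 0.19 and 7.02 ± 0.07 (SD, n = 3), a difference of 0.34 (SE 0.15, 95% interval 0.01 to 0.67) or 1.27-fold, with an adjusted p of 0.217 in limma.

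Cd8b1, the beta chain of conventional CD8 T cells, was read 1313, 1940 and 1679 times in WT and 2264, 2708 and 2874 times in AMPK KO libraries. Its log2 values were 7.17, 7.61 and 7.58 in WT and 7.59, 7.98 and 7.92 in AMPK KO. WT sample 2 stood above AMPK KO sample 1, so the groups overlapped, and AMPK KO samples 2 and 3 were the highest of the 6. The means were 7.45 ± 0.25 and 7.83 ± 0.21 (SD, n = 3), a difference of 0.38 (SE 0.16, 95% interval 0.03 to 0.73) or 1.30-fold, with an adjusted p of 0.197 in limma.

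**Figure D1:**
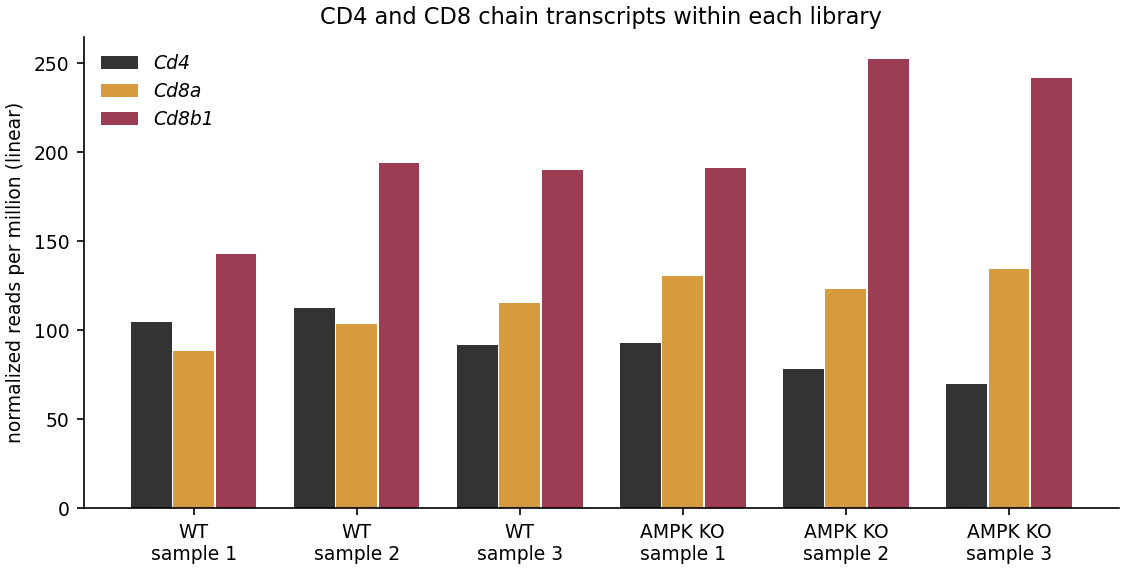
Normalized CPM on a linear scale (vertical axis) for Cd4, Cd8a and Cd8b1 in each of the 6 libraries (horizontal axis), with 1 bar per gene and library and no error bar because each bar is 1 library. Cd8b1 is the highest bar in all 6 libraries, and Cd8a is above Cd4 in WT sample 3 and in the 3 AMPK KO samples.

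The ratios within a library do not depend on how libraries were scaled to each other. Cd4 reads per Cd8a read were 1.19, 1.09 and 0.792 in WT and 0.709, 0.636 and 0.519 in AMPK KO libraries. WT samples 1 and 2 thus held slightly more Cd4 than Cd8a, WT sample 3 held less, and every AMPK KO library was below every WT library. The mean log2 ratio was 0.01 ± 0.31 in WT and -0.70 ± 0.23 in AMPK KO (SD, n = 3), a difference of -0.71, with p = 0.1 in an exact two-sided permutation test, the smallest that 3 against 3 samples can give. The genes were chosen with this contrast in view, so the value describes these libraries and supports nothing further.

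As a share of Cd4 and Cd8a reads together, Cd8a made up 45.8% (95% Wilson interval 43.4 to 48.1%), 47.8% (45.7 to 49.96%) and 55.8% (53.5 to 58.1%) in WT samples 1, 2 and 3. In AMPK KO samples 1, 2 and 3 the share was 58.5% (56.6 to 60.4%), 61.1% (59.1 to 63.2%) and 65.8% (63.9 to 67.7%). The intervals, which cover counting error only, showed WT sample 3 apart from the other WT samples and overlapping AMPK KO sample 1.

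Cd4 reads per Cd8b1 read were 0.734, 0.581 and 0.482 in WT and 0.484, 0.310 and 0.288 in AMPK KO libraries. All 6 values were below 1, and WT sample 3 lay just below AMPK KO sample 1. The mean log2 ratio was -0.76 ± 0.30 in WT and -1.51 ± 0.40 in AMPK KO (SD, n = 3), a difference of -0.75 (exact two-sided permutation p = 0.2).

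The ratio of the 2 CD8 chains to each other did not separate the genotypes. Cd8b1 reads per Cd8a read were 1.61, 1.88 and 1.64 in WT and 1.47, 2.05 and 1.80 in AMPK KO libraries, so the lowest and the highest ratio were both in the AMPK KO group. The difference in log2 ratio was 0.04 (exact two-sided permutation p = 1), against an SD of 0.12 in WT and 0.24 in AMPK KO. Across the 6 libraries the log2 values of Cd8a and Cd8b1 had a Pearson r of 0.81, and Cd4 had an r of -0.77 with either, as a description of libraries that fall into 2 genotype groups.

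**Figure D2:**
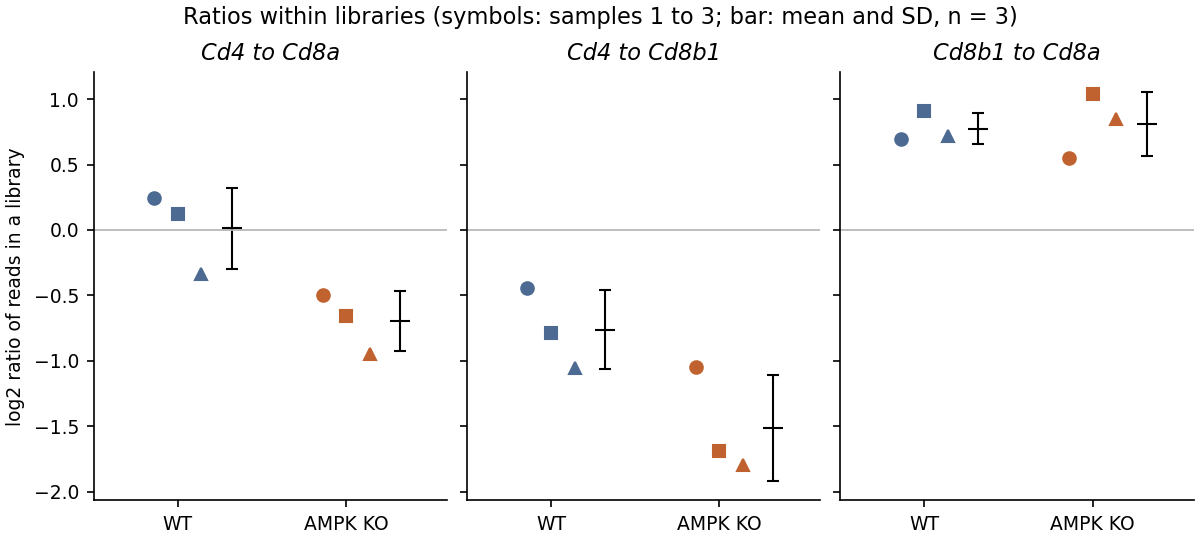
Log2 ratio of reads within a library (vertical axis, 0 is equal reads) for Cd4 to Cd8a, Cd4 to Cd8b1 and Cd8b1 to Cd8a in WT and AMPK KO, with circle, square and triangle for samples 1, 2 and 3 and bars for the mean and SD (n = 3). The groups separate for Cd4 to Cd8a, meet for Cd4 to Cd8b1 at WT sample 3 and AMPK KO sample 1, and overlap fully for Cd8b1 to Cd8a.

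Zbtb7b, the factor that holds CD4 T cells to their lineage, was the least abundant of the 6 genes, with 64, 117 and 124 reads in WT and 112, 143 and 123 reads in AMPK KO libraries. The log2 values were 2.99, 3.67 and 3.91 in WT and 3.39, 3.84 and 3.50 in AMPK KO. WT held both the lowest and the highest value, with the AMPK KO samples between them. The means were 3.52 ± 0.48 and 3.58 ± 0.24 (SD, n = 3), a difference of 0.05 (SE 0.32, 95% interval -0.63 to 0.74, limma adjusted p = 0.949), and the direction turned to -0.21 without WT sample 1, -0.078 without AMPK KO sample 2, -0.030 under quantile normalization and -0.0093 when values were scaled to reads outside Rn45s. The interval leaves room for a change of over 0.6 on the log2 scale either way.

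Runx3, which silences Cd4 in CD8 T cells and is also carried by activated T helper cells and NK cells, was the most abundant of the 3 regulators among the 6 genes. It was read 2256, 2380 and 2313 times in WT and 2347, 1749 and 2464 times in AMPK KO libraries, or 7.94, 7.90 and 8.04 against 7.64, 7.36 and 7.70 on the log2 scale. Every AMPK KO value was below every WT value after normalization, and AMPK KO sample 2 was the lowest. The means were 7.96 ± 0.07 and 7.57 ± 0.18 (SD, n = 3), a difference of -0.39 (SE 0.14, 95% interval -0.70 to -0.09) or 0.761 times the WT level, with an adjusted p of 0.125 in limma. The differences of Runx3 and of the CD8 chains, genes of the program that Runx3 is known to activate, had opposite signs.

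Runx1 was read 438, 404 and 434 times in WT and 416, 356 and 418 times in AMPK KO libraries. The log2 values were 5.601, 5.37 and 5.65 in WT and 5.17, 5.09 and 5.18 in AMPK KO, again without overlap. The means were 5.54 ± 0.15 and 5.15 ± 0.05 (SD, n = 3), a difference of -0.39 (SE 0.19, 95% interval -0.79 to 0.01, limma adjusted p = 0.241). The Runx pair, whose windows share the stretch printed above, was not separated by genotype in its ratio: Runx3 reads per Runx1 read were 5.15, 5.89 and 5.33 in WT and 5.64, 4.91 and 5.89 in AMPK KO libraries, a log2 difference of 0.00 (exact two-sided permutation p = 0.9).

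Runx3 reads per Zbtb7b read were 35.2, 20.3 and 18.7 in WT and 21.0, 12.2 and 20.03 in AMPK KO libraries. WT sample 1, with its 64 Zbtb7b reads, gave the highest ratio and AMPK KO sample 2 the lowest, and the others lay between 18.7 and 21.0. The log2 difference was -0.46 (exact two-sided permutation p = 0.5), so the balance of these 2 opposing regulators did not separate the groups beyond the spread of the samples, although the spread would hide a moderate change.

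**Figure D3:**
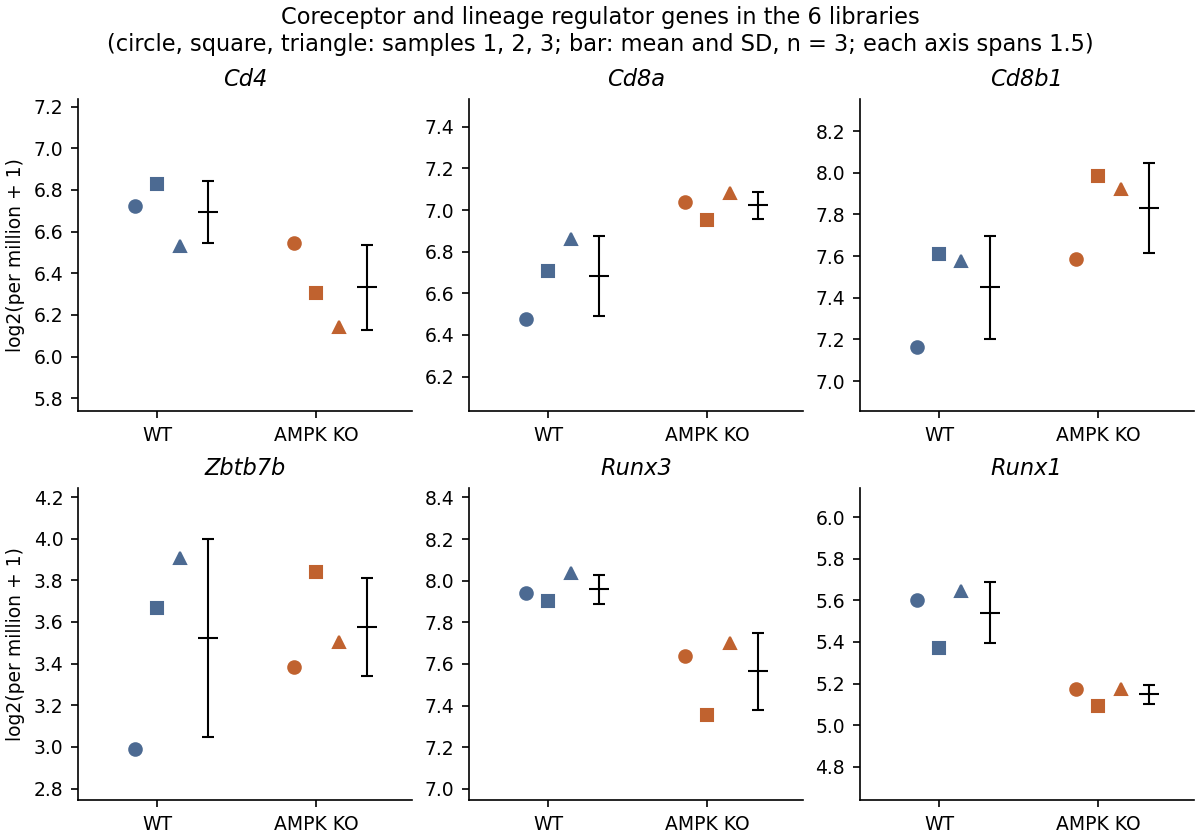
Deposited log2 value (vertical axis, log2 of normalized CPM plus 1, each axis spanning 1.5) of the 6 genes in WT and AMPK KO, with circle, square and triangle for samples 1, 2 and 3 and bars for the mean and SD (n = 3). Cd8a lies higher, and Runx3 and Runx1 lie lower, in all AMPK KO samples than in all WT samples, while Cd4, Cd8b1 and Zbtb7b overlap.

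Of the 6 genes, 0 passed an adjusted p of 0.05 in limma, beside 5.65% of all genes tested (2.54% higher and 3.1% lower in AMPK KO). By limma voom on recovered reads 0 of the 6 passed, beside 539 of 11279 genes. In the limma fit 4 (Cd4, Cd8a, Cd8b1 and Runx3) had an unadjusted p below 0.05, beside 21.3% of all genes. The groups did not overlap for 3 of the 6 (Cd8a higher, Runx3 and Runx1 lower), beside 25.6% of all genes (11.6% higher and 14% lower). These shares are printed for scale, since the genes were chosen from this contrast. With every alternative, Cd4 stayed lower (-0.47 to -0.27), Cd8a higher (0.24 to 0.43), Cd8b1 higher (0.24 to 0.50), Runx3 lower (-0.46 to -0.29) and Runx1 lower (-0.48 to -0.34) in AMPK KO, and none of the 6 genes passed the threshold. The scaling to reads outside Rn45s, which took up a larger share of WT reads, gave -0.43 for Cd4, 0.27 for Cd8a and 0.31 for Cd8b1.

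Levels of different genes were compared per length, as CPM divided by the kilobases of the longest coding transcript, although 3′ libraries give reads by transcript end and so overstate short transcripts on this scale. Cd8b1 (1483 bases) came highest at 96.1 to 170 over the 6 libraries, Runx3 (3884 bases) followed at 41.9 to 67.3, and Cd8a (3128 bases) at 28.2 to 43.0 and Cd4 (3108 bases) at 22.4 to 36.3 overlapped. Runx1 (5861 bases) stood at 5.66 to 8.37 and Zbtb7b (4333 bases) at 1.6 to 3.24. The ranges of Runx3 and Cd8a overlapped narrowly, within the AMPK KO group, whereas Cd8b1, Runx1 and Zbtb7b were each apart from their neighbours in the order. Per length, Cd8b1 exceeded Cd4 by 2.85, 3.61 and 4.35 times in WT and 4.33, 6.76 and 7.27 times in AMPK KO libraries. By mean log2 value, without length, Runx3 ranked 646 and Cd8b1 710 of 11279 genes, followed by Cd8a at 1322, Cd4 at 1681, Runx1 at 3478 and Zbtb7b at 6990. These ranks pool both groups: by the group means above, Runx3 stood above Cd8b1 in WT and below it in AMPK KO, and Cd4 and Cd8a were level in WT.

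Lists of genes that mark cells carrying CD4 or CD8 were set beside these values. For scale, 5.65% of all genes tested passed an adjusted p of 0.05 in limma (2.54% higher and 3.1% lower in AMPK KO). An unadjusted p below 0.05 was found for 21.3% of all genes. These shares stand beside the counts of every list below, and no sum of a list was tested. Transcripts of the T cell receptor complex were present in all 6 libraries, where Cd3d gave 5587 to 7951 reads and Cd3e 1065 to 1571 reads per library. Of 10 tested genes of the receptor complex and pan-T list, 3 fell and 1 rose in AMPK KO cells in limma (adjusted p below 0.05 over all genes), with a median log2 difference of -0.32 beside 0.02 over all genes. Cd3g (-0.93, SE 0.17, adjusted p = 0.00579) and Cd3e (-0.66, SE 0.15, adjusted p = 0.0239), which form the signalling complex, and the costimulatory receptor Cd28 (-0.56, SE 0.16, adjusted p = 0.0470) fell, whereas the surface glycoprotein Thy1 rose (0.50, SE 0.14, adjusted p = 0.0476). Cd3d (-0.31), Cd2 (-0.39) and the kinase Lck (-0.17), which binds the tails of CD4 and CD8, did not pass. The summed level of the list was 2999 to 3193 CPM in WT and 2332 to 2961 in AMPK KO, with no test of the sum. Leaving out WT sample 1 gave 0 calls, WT sample 3 or AMPK KO sample 1 gave 1 call, AMPK KO sample 3 gave 2 and AMPK KO sample 2 gave 6. Without a filter on low values the list had 1 call, with the replicate block 0 and with limma voom on recovered reads 2. Thy1 passed in 5 of 13 alternatives. When scaled to reads outside Rn45s it was 0.43 higher (adjusted p = 0.0713, limma), and without WT sample 2 its adjusted p was 0.0706 (limma).

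Genes of CD4 helper and regulatory T cells showed 1 fall and 1 rise among 10 tested, with a median of -0.21. Cd40lg, the CD40 ligand that activated CD4 helper T cells display, was 6.37, 6.01 and 5.64 in WT and 4.95, 4.0 and 3.78 in AMPK KO on the log2 scale. It fell by 1.76 (SE 0.29, adjusted p = 0.00296, limma), beside the difference of -0.36 for Cd4. The follicular homing receptor Cxcr5 rose by 0.84 (SE 0.21, adjusted p = 0.0314), and Icos (-0.36), Ikzf2 (-0.42) and Tnfrsf4 (-0.02, which turned positive under quantile normalization) did not pass. Without WT sample 1 the list had 0 calls (Cd40lg adjusted p = 0.0520), without AMPK KO sample 2 it had 3, without any other sample 1, and with no filter or with the replicate block 1. The list's sum was 1044 to 1133 CPM in WT and 808 to 1070 in AMPK KO, with overlap.

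Of the 17 tested genes of CD8 T cells and cytotoxic lymphocytes, 4 rose and 0 fell in AMPK KO cells in limma, with a median of 0.62. A higher median was not particular to this list. Of the lists below, it was 0.75 for NK cells, 0.59 for CD8 alpha dendritic cells, 0.47 for gamma-delta and innate-like T cells and 1.10 for macrophages. It was 0.05 for plasmacytoid dendritic cells and 0.02 for B cells, and negative for the thymocyte, pan-T, helper and fate regulator lists. These were Gzmm (2.97, SE 0.43, adjusted p = 0.00127), a granule protease, Ccl5 (1.73, SE 0.16, adjusted p = 2.0e-05), a chemokine of memory CD8 T and NK cells, and the NK cell type receptors Klrk1 (1.62, SE 0.35, adjusted p = 0.0143) and Klrc1 (1.61, SE 0.23, adjusted p = 0.000956). Eomes (0.65), Nkg7 (0.19, and -0.074 without AMPK KO sample 2) and Ctsw (0.03, and -0.042 when scaled outside Rn45s) did not pass. At an unadjusted p below 0.05 there were 9 of the 17 (beside 21.3% of all genes), 8 higher in AMPK KO and 1 lower. Of these, Gzmb (mean log2 0.77 in WT and 1.91 in AMPK KO) and Prf1 passed the filter on low values only through the group where they were high, so the count supports nothing further. The lower one was the pore-forming protein Prf1, at 1.51, 2.07 and 1.43 in WT and 0.88, 0.13 and 0.74 in AMPK KO on the log2 scale, without overlap (-1.09, adjusted p = 0.181, limma), and Gzmk was listed at 0 in all 6 libraries. The list's sum was 427 to 449 CPM in WT and 718 to 902 in AMPK KO, without overlap. Leaving out AMPK KO sample 2 gave 7 calls, and leaving out any other sample 3 to 6. Klrk1 passed in 8 of 13 alternatives. Its call was lost with no filter on low values (adjusted p = 0.0620, limma) and with the replicate block (adjusted p = 0.0795, limma). It was also lost when WT sample 1, WT sample 3 or AMPK KO sample 1 was left out.

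Markers of other cells that carry cytotoxic genes, CD8 alpha or CD4 were also read in these libraries. Of 7 tested NK cell genes 1 rose (Tyrobp, an adaptor that myeloid cells also carry, 1.02, adjusted p = 0.0198, limma), and the sums of the list were 43.5 to 67.1 CPM in WT and 90.3 to 120 in AMPK KO. Of the 8 genes in the list, the 7 tested had higher means in AMPK KO, where Klre1 (mean log2 0.68 in WT and 1.72 in AMPK KO) passed the filter through its AMPK KO level, and Ncr1, below the filter, had a lower mean (0.88 in WT and 0.22 in AMPK KO). Reads of the NK receptors were few, with 0 to 19 for Ncr1, 23 to 75 for Klrb1c (0.45), 8 to 45 for Klra4 (0.38) and 0 to 80 for Klra8 (0.78). The call was lost when WT sample 1 or AMPK KO sample 1 was left out, with no filter on low values and with the replicate number as a block (adjusted p = 0.122, limma). The list of dendritic cells that carry CD8 alpha had 0 calls in limma among 9 tested. At an unadjusted p below 0.05 there were 2 of the 9, near the share of all genes (21.3%). Means were higher in AMPK KO for these 9, whereas the tenth gene Tlr3, below the filter, had a lower one (mean log2 1.19 in WT and 0.61 in AMPK KO). The sums did not overlap at 199 to 218 CPM in WT and 241 to 293 in AMPK KO. Leaving out AMPK KO sample 2 gave 1 call in this list. Its most abundant genes were Irf8 (0.21), Wdfy4 (0.45) and Cd24a (0.14), and the defining markers Xcr1 and Clec9a had 31 to 97 and 5 to 34 reads. Of the 6 thymocyte genes 2 were tested, with 0 calls in limma, 0 at an unadjusted p below 0.05, and sums of 6.30 to 7.70 CPM in WT and 5.21 to 5.82 in AMPK KO. These were Dntt at 25 to 56 reads (0.13) and Arpp21 at 6 to 33 reads (-0.95). Arpp21 (mean log2 1.70 in WT and 0.76 in AMPK KO) passed the filter only through its WT level. Those below the filter included Rag1 with 0 to 7 reads, Rag2 with 0 to 2 and Ptcra with 0 to 3. Of the gamma-delta and innate-like T cell list 3 genes were tested with 0 calls in limma and 0 at an unadjusted p below 0.05 (Zbtb16 0.62, Blk 0.47 and Cd163l1 0.39), and the sums were 17.9 to 28.8 CPM in WT and 30.5 to 34.1 in AMPK KO. Plasmacytoid dendritic cell genes, a cell type that can carry CD4, had 1 rise (Cox6a2, 1.81, adjusted p = 0.0322) among 8 (median 0.05), with overlapping sums of 238 to 283 and 263 to 305 CPM. This call was lost when WT sample 1 or 3 or AMPK KO sample 1 or 3 was left out, with no filter, with limma voom and with the replicate block (adjusted p = 0.144, limma), and the list's most abundant genes Ly6d (0.08), Tcf4 (0.02, and -0.044 when scaled outside Rn45s) and Pacsin1 (0.27) did not pass. The part of any of these cells in the CD8 and CD4 chain reads was not tested.

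Markers of cells that should carry neither CD8 chain were read too. Of 13 tested macrophage and monocyte genes, 8 rose and 0 fell in limma (median 1.10), namely Cd14 (1.87), the complement genes C1qa (1.85), C1qc (1.51) and C1qb (1.5), Vcam1 (1.24), Cd68 (1.10), the growth factor receptor Csf1r (0.97) and Spic (0.68). Adgre1 (1.01), Lyz2 (1.03) and Marco (0.66) did not pass. Fcgr1 (mean log2 0.62 in WT and 2.03 in AMPK KO) passed the filter on low values only through its AMPK KO level. It is among the 13 and enters the median, so the median supports nothing further. The summed level was 479 to 551 CPM in WT and 905 to 1657 in AMPK KO. The count was 5 without WT sample 1 and 5 with the replicate block, and of 13 alternatives Spic passed in 3 and Csf1r in 7. Of 11 tested B cell genes 0 were called in limma (1 at an unadjusted p below 0.05), and the sums overlapped at 354 to 374 and 344 to 407 CPM. Cd79b (-0.16) and Cr2 (0.25), among the most abundant, did not pass. The part of these cells in the differences of the 6 genes was not tested.

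Among 24 other regulators of the CD4 and CD8 choice, 6 fell and 1 rose in AMPK KO cells in limma, with a median of -0.20. Tcf7 (-1.66, SE 0.23, adjusted p = 0.000719) and Lef1 (-1.03, SE 0.15, adjusted p = 0.00160), related factors that act upstream of Zbtb7b in the thymus and repress CD4 in CD8 T cells, fell, as did their corepressor Tle4 (-0.88, SE 0.16, adjusted p = 0.00592). Ets1 (-0.63), Ikzf1 (-0.58) and Bcl11b (-0.55), general T lineage factors, fell too (adjusted p = 0.0425, 0.0205 and 0.0397). The cytokine signalling inhibitor Socs1 rose by 2.13 (SE 0.48, adjusted p = 0.0196), although its groups overlapped. Satb1 (-0.29), Id2 (0.32) and Chd4 (-0.30) did not pass. Without WT sample 1, or without WT sample 3, only Tcf7 and Lef1 of the 7 remained, without AMPK KO sample 1 the count was 3, with no filter on low values it was 4 and with the replicate block 2. Socs1 passed in 6 of 13 alternatives, and its adjusted p was 0.192 with robust eBayes, 0.0507 with limma voom and 0.128 with the replicate block.

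**Figure D4:**
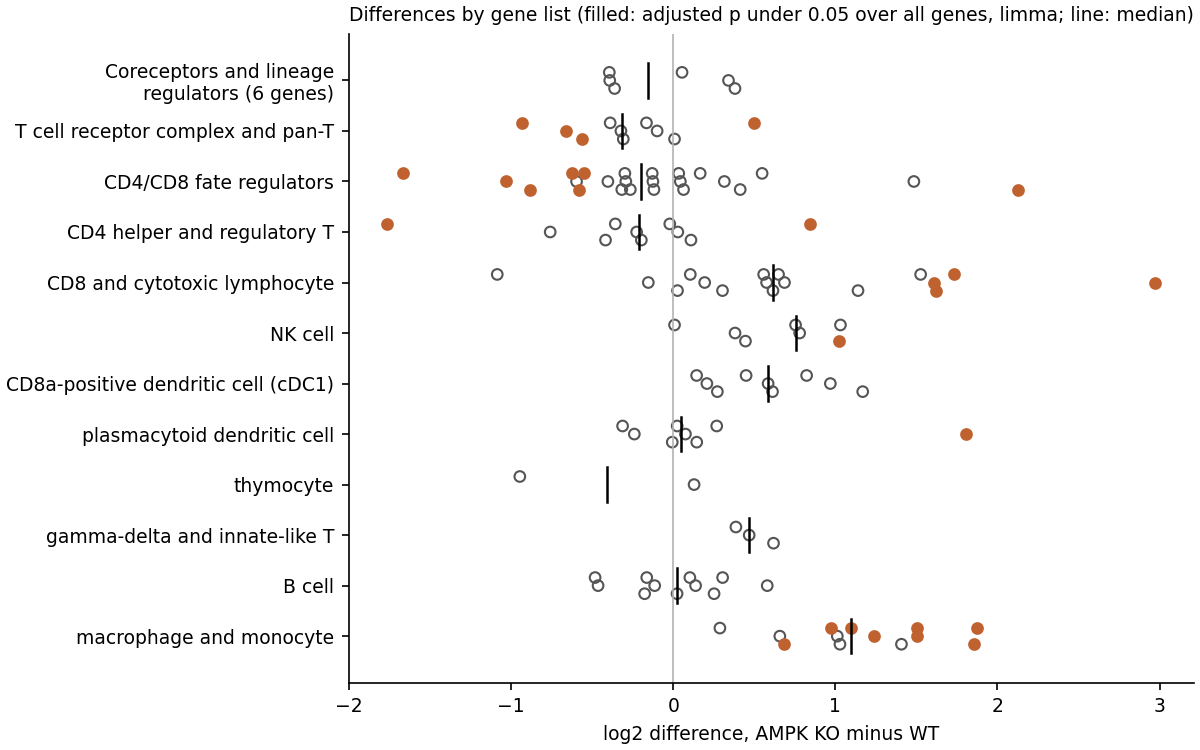
Log2 difference, AMPK KO minus WT (horizontal axis), of each tested gene (circle) of the 6 coreceptor and lineage regulator genes and of the 11 lists of other genes (rows), filled where the limma adjusted p over all genes was below 0.05, with a vertical line at each median. The 6 coreceptor and regulator genes lie within 0.4 of 0 and are all open, while the macrophage row has its median at 1.10 and 8 filled circles.

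The genes that varied most like each coreceptor over the 6 libraries were taken among 6143 tested genes with a mean log2 of at least 4, by Pearson r, as a description in which genotype and sample both enter. For Cd4 these were Nudcd2 (r = 0.98), St8sia6 (0.97) and Egr2 (0.97), an early response factor of T cell receptor signalling. For Cd8a they were Smpdl3a (1.00), Xpot (0.99) and 4933416M07Rik (0.98), and for Cd8b1 Gabarap (0.99), Tbc1d8 (0.98) and Sla2 (0.98), an adaptor that limits T cell receptor signalling. Cd8b1 ranked 250 in likeness to Cd8a, and Cd8a ranked 161 in likeness to Cd8b1, so that many genes followed either chain more closely than its partner did.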

How the data were processed

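RNA of 3 WT and 3 AMPK KO samples was measured with QuantSeq 3′ libraries made from 500 ng of total RNA. The authors normalized reads with TMM and CPM, added 1 and deposited log2 values per gene. The submitters' processing notes name Bowtie2, bedtools and mm10, and the strand setting and annotation are not given in the sources used here. Values are multiples of 1 step per library: 100% of those worth 100 reads or less came within 0.1 of a whole read, which gave read numbers and depth. The read numbers limit the precision, and intervals cover counting error only. Of the 23282 listed symbols, 35 occur more than once, on 79 lines.

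Genes with a mean log2 of at least 1 (11279) were tested on the deposited values with lmFit and eBayes (trend) of limma 3.58.1 in R 4.3.3, two-sided, with genotype as the only term, Benjamini-Hochberg adjustment over all genes tested and a threshold of 0.05. The procedure was tested on simulated data. Ratios used recovered reads, with exact two-sided permutation tests (scipy 1.17.1). The genes, the 11 lists and the tests were chosen with earlier results of these data known. The named genes were the 6 genes, Prkaa1, each list's genes past the threshold and at most 3 further genes of highest mean level, and the 3 genes most like each coreceptor. Xist, Ddx3y, Gm15417, Runx2, Gm16225 and low members of the lists (Xcr1, Clec9a, Rag1, Rag2, Ptcra, Ncr1, Klre1, Tlr3, Gzmb, Prf1, Gzmk, Fcgr1) were named outside this rule, after their values were seen. Some genes that the rule would name are not reported here. Trac, Trbc1, Trbc2 and Trdc were not analysed here. Alternatives were quantile normalization, scaling to reads outside Rn45s, no filter and a filter at 3, a replicate block, robust eBayes, limma voom on recovered reads with the effective library sizes of the deposited values, leaving out each sample, and, for ratios, division by transcript length. Promoter sequence came from RefSeq (GRCm38.p6), and no window was found for Cd4 and Cd8b1.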

Additional observations from a re-analysis of the deposited data

How the results depend on the processing

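Under 13 alternatives to the test, 0 of the 6 genes passed the threshold, and Cd4, Cd8a, Cd8b1, Runx3 and Runx1 kept their direction. Zbtb7b reversed to -0.030 under quantile normalization and -0.0093 with scaling outside Rn45s, and ranged from -0.21 (no WT sample 1) to 0.25 when 1 sample was left out, with -0.078 if that was AMPK KO sample 2. Of the other named genes, 6 reversed. Tnfrsf4 went to 0.048 under quantile normalization and ranged from -0.41 to 0.26 with 1 sample left out, positive when this was WT sample 3 (0.050) or AMPK KO sample 1 (0.084) or 3 (0.26). Nkg7 ranged from -0.074 (AMPK KO sample 2 left out) to 0.44. Ctsw went to -0.042 with scaling outside Rn45s and ranged from -0.13 to 0.14, negative when AMPK KO sample 2 (-0.13) or WT sample 2 (-0.083) was left out. Ly6d ranged from -0.066 (AMPK KO sample 2 left out) to 0.21, and Dntt from -0.11 (WT sample 2 left out) to 0.39. Tcf4 went to -0.044 with scaling outside Rn45s and ranged from -0.061 to 0.16, negative when WT sample 2 (-0.061) or 3 (-0.023) or AMPK KO sample 3 (-0.024) was left out. The count of genes past the threshold, 637, was 308 with no filter, 102 with the replicate block, 539 with limma voom on recovered reads, and 127 to 1243 when 1 sample was left out (WT sample 1 gave 127 and WT sample 3 gave 133, while AMPK KO sample 1 gave 173 and AMPK KO sample 2 gave 1243). The count over the 11 lists, 27, was 15 with no filter, 11 with the replicate block and 10 to 35 when 1 sample was left out (lowest for WT sample 1 at 10, and 14 for WT sample 3 or AMPK KO sample 1). The 4 calls of the pan-T list became 1 with no filter, 0 with the replicate block and 2 with limma voom (Cd28 at an adjusted p of 0.0522 and Thy1 at 0.0515). The 7 calls of the fate regulator list became 4 with no filter and 2 with the block, the 2 of the helper list 1 with either, the 8 of the macrophage list 5 with the block, and the single calls of the NK and plasmacytoid dendritic cell lists 0 with either. In the CD8 and cytotoxic list, Klrk1 lost its call with no filter and with the block. Dividing reads by transcript length moved the mean log2 ratio of Cd4 to Cd8b1 to -1.83 in WT and -2.58 in AMPK KO and left its difference at -0.75. The difference in Cd4 to Cd8a ratio was -0.88 to -0.59 when 1 sample was left out. The cause of these shifts was not tested. Same-numbered samples did not deviate together (r = -0.08, -0.32 and -0.16), so the numbers were not taken as a pairing, and under the block 0 of the 6 genes passed. The median of all genes moved from 0.02 to -0.05 with scaling outside Rn45s. Among results for single genes and lists, 957 values were unchanged in direction and side of the threshold, or moved less than the spread, 91 lost the threshold, 10 gained it and 34 counts moved by over 1.5 times. Zbtb7b, at 64 to 143 reads, had the lowest depth of the 6 genes.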
